A study of Mus musculus with 23 samples.

Results

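The genes described here encode the proteins of the cytosolic ribosome. They were taken by symbol: every gene of the Rpl, Rps or Rplp name form with a probe set of its own on the array, leaving out pseudogenes and the Rps6k kinases. This gave 60 of the 18702 genes measured, namely 20 of the small subunit, 30 of the large subunit, 3 of the stalk and 7 paralogs whose symbol ends in l (Rpl10l, Rpl32l, Rpl39l, Rpl3l, Rps27l, Rps4l) or l1 (Rpl7l1). A further 17 genes of the same name form, among them Rpl3, Rpl11, Rpl13a, Rps16 and Rps27, lie only on probe sets that name several genes and are not among the 60. The rule itself uses symbols and no measured value.

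A ribosome consists of a small subunit, which reads the messenger RNA, and a large subunit, which joins the amino acids. The stalk proteins Rplp0, Rplp1 and Rplp2 stand on the large subunit and recruit the elongation factors. Cells make the ribosomal proteins in matched amounts. In vertebrates their messenger RNAs begin with a run of C and T, the terminal oligopyrimidine element, through which mTORC1 and Larp1 set how much of them is translated, so that much of their control acts on translation and can leave the messenger RNA level unchanged. The mammalian genome also carries many processed copies of these genes, so a probe can bind the product of more than 1 locus.

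RNA came from the hypothalamus of male db/db mice, which lack working leptin receptor signalling and are obese and diabetic. All animals were 8 weeks old and had been on chow for 2 weeks. They received celastrol, a plant triterpenoid studied for lowering food intake, or DMSO, its vehicle (25 µl per day), by intraperitoneal injection, and the hypothalamus was collected 6 h, 1 day or 4 days into treatment. The groups were celastrol at 6 h (3 arrays), vehicle at 6 h (4), celastrol at 1 day (4), vehicle at 1 day (4), celastrol at 4 days (4) and vehicle at 4 days (4). At 6 h the labels state 250 µg/kg of celastrol, and they state no dose for 1 and 4 days. No lean or untreated group was analysed, so every comparison is within db/db animals. Replicates are labelled as biological, and nothing says which animal or pool each array came from, so p-values measure the spread between these samples.

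Values are log2 expression after RMA, and differences are differences of these values. Apart from rankings of genes by mean level, a level on 1 probe set is not set against a level on another. Hypothalamic peptides were present on every array, with Hcrt between 12.58 and 13.10 and Pmch between 12.85 and 13.48, while the pituitary hormone Prl varied from 5.88 to 11.28 between arrays. In bulk tissue, fewer cells of a type and less RNA per cell cannot be told apart.

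One array stood apart from the other 22 in these genes, and it belonged to a control group. On vehicle 6 h replicate 3 the mean over the 60 genes was 11.36, against 11.03, 11.03 and 11.01 on the other 3 vehicle arrays at 6 h. Over the remaining 22 arrays that mean lay between 10.98 and 11.10. Of the 60 genes, 50 had their highest value of all 23 arrays there and 2 their lowest. Among all 18702 genes, 2720 (14.5%) had their highest value on that array and 3473 (18.6%) their lowest. On the other 22 arrays these counts reached at most 1775 and 1453, so that array stood apart over all genes as well. The median gene of the 60 stood 0.305 above the mean of the other 3 vehicle arrays at 6 h (1.24-fold), while the median over all genes was -0.025. Of the 60, 55 stood above that mean (91.7%), against 44.5% of all genes. No other array held the highest value of more than 2 of the 60 genes. These are descriptions of 1 array, with no test.

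**Figure D1:**
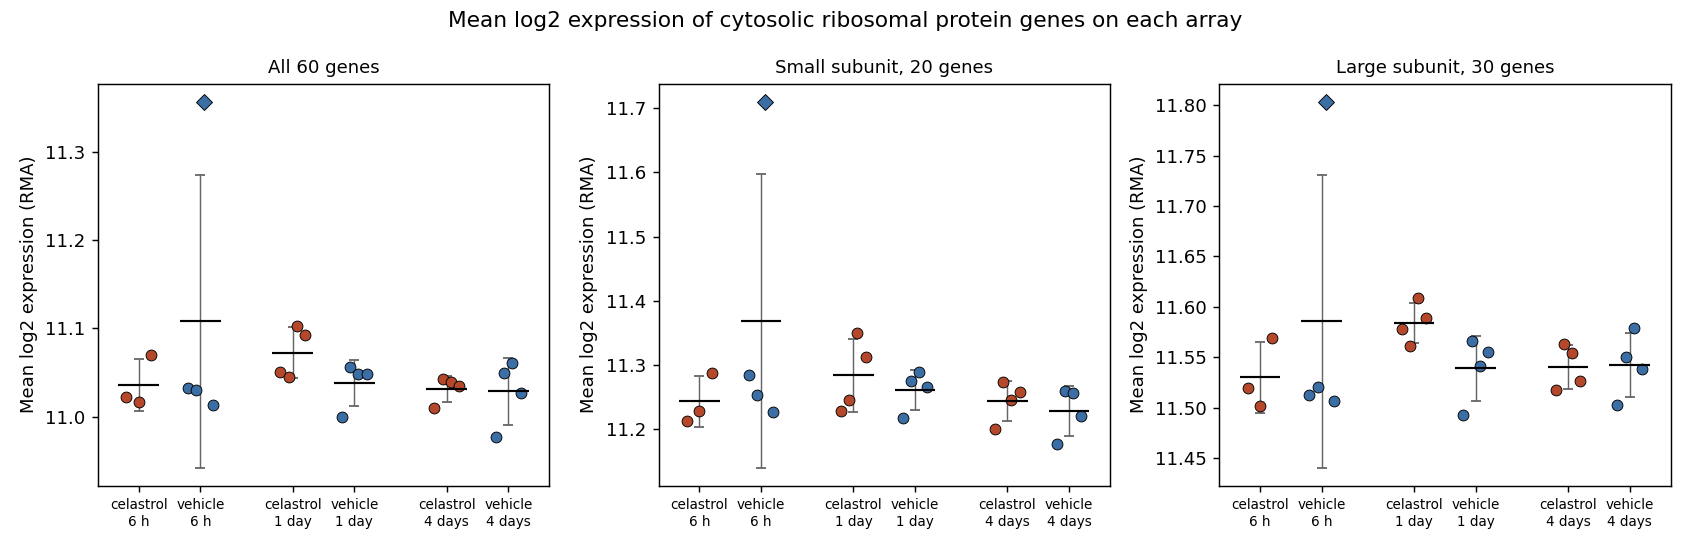
Mean log2 expression over all 60 ribosomal protein genes (left), the 20 small subunit genes (middle) and the 30 large subunit genes (right), for each of the 23 arrays by group. Points are arrays, horizontal lines group means and bars 1 SD; the diamond, vehicle 6 h replicate 3, lies at 11.36 in the left panel while the other 22 arrays lie between 10.98 and 11.10.

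The small subunit genes differed most on that array. Of 20, 19 had their highest value there, and their median difference from the other 3 vehicle arrays was 0.478, a 1.39-fold excess. Rps21 stood at 10.62 on vehicle 6 h replicate 3, against 9.85, 9.65 and 9.72 on the other 3. Rps12, a protein of the small subunit head, was 0.793 higher there (1.73-fold), and Rps29, a small zinc-binding protein, 0.764 higher (1.70-fold). Rps3a1 differed by 0.742 and Rps19, whose loss of 1 copy causes Diamond-Blackfan anaemia in humans, by 0.691. Rps18 (0.457) and Rps4x (0.444) lay near the median of the subunit. At the other end, Rps6, the substrate of the S6 kinases, stood at 14.09 there, against 13.97, 14.03 and 13.98 on the others, and Rps10 was 0.068 higher. Rps2 was the exception, with a difference of -0.164. The excess thus ran over a wide range among small subunit genes, with 1 of 20 on the other side.

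The large subunit genes were also higher on that array, by less. Of 30, 23 had their highest value there, with a median difference of 0.284 (1.22-fold). Rpl7 stood at 11.29 on vehicle 6 h replicate 3, against 10.50, 10.42 and 10.35 on the other 3, a 1.82-fold excess. Rpl26 was 0.600 and Rpl23 0.568 higher. Rpl5, which binds the 5S ribosomal RNA together with Rpl11 and in excess inhibits Mdm2, stood at 12.25, against 11.75, 11.81 and 11.77. Rpl4 and Rpl28 differed by only 0.040 and 0.036, Rpl12, a protein of the stalk base, differed by -0.103, and Rpl29 had its lowest value of all 23 arrays, at a difference of -0.141. All 3 stalk genes had their highest value there, by 0.303 for Rplp2, 0.217 for Rplp1 and 0.134 for Rplp0. Over the 53 small subunit, large subunit and stalk genes, the difference tended to be smaller where the mean level was higher (Spearman rho -0.472). The part of level in the range of differences was not tested.

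Among the 7 paralogs the array divided the genes. Rps27l, the p53-inducible paralog of Rps27, showed the widest gap of the 60, 10.61 on vehicle 6 h replicate 3 against 9.70, 9.60 and 9.71 on the other 3 (1.92-fold). Rps4l was 0.371, Rpl10l 0.206, Rpl7l1 0.160 and Rpl32l 0.092 higher. Rpl3l, which in striated muscle takes the place of Rpl3, differed by -0.146, and Rpl39l, a paralog of male germ cells, by -0.195, with its lowest value of all arrays.

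**Figure D2:**
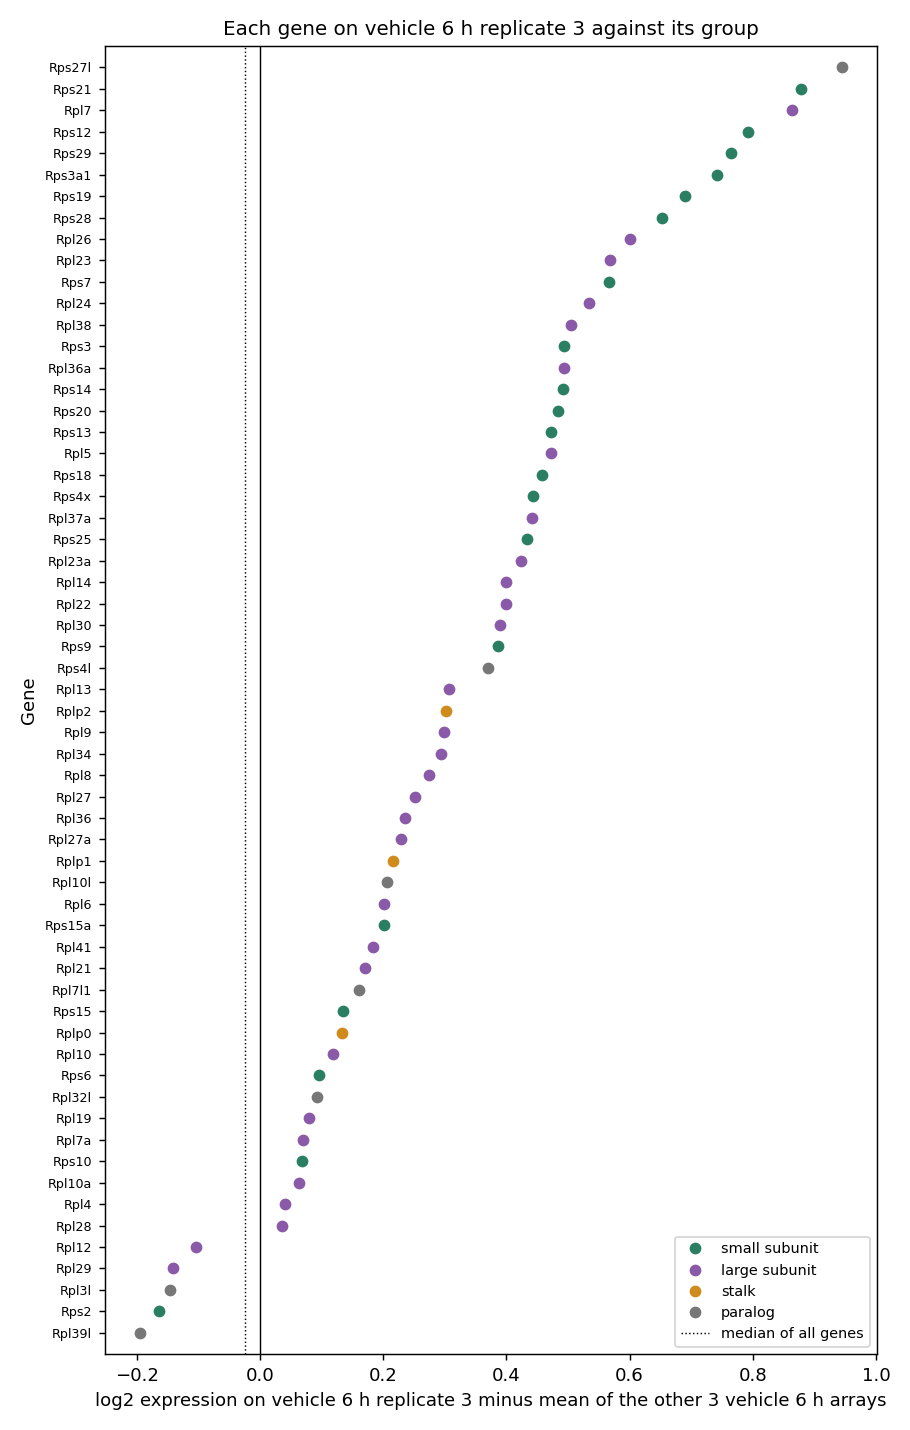
Each of the 60 genes on vehicle 6 h replicate 3, as log2 expression there minus the mean of the other 3 vehicle arrays at 6 h, ordered by that difference and coloured by subunit; the dotted line is the median over all genes (-0.025). Of the 60 points, 55 lie above 0, from 0.036 for Rpl28 to 0.944 for Rps27l, and 5 lie below, the lowest at -0.195 for Rpl39l.

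The excess did not depend on the probe set taken for a gene. The 60 genes have 209 probe sets of their own, of which 202 stood above the mean of the other 3 vehicle arrays at 6 h and 180 above all 22 other arrays. Over all genes, with 1 probe set each, these shares were 44.5% and 14.5%. In 36 of the 38 genes with several probe sets, all of them stood higher. Their differences spread, in the median gene, over 0.072. These probe sets are not independent measurements: the 3 of Rpl41 gave identical differences, and some may read processed copies. A further 90 probe sets name several genes, among them at least 1 of the 17 ribosomal protein genes outside the 60. They had a median difference of 0.421, with 84 above the other 3.

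Other gene groups moved with the ribosomal genes on that array, and some went the other way. The 77 mitochondrial ribosomal protein genes stood 0.210 higher in the median, with 47 at their highest, and the 39 proteasome subunit genes 0.214 higher, with 27 at their highest. The 42 small nucleolar RNA genes, a list chosen after the values were seen, were 0.436 higher in the median, with 30 at their highest. In that order, 61.0%, 69.2% and 71.4% of these lists were at their highest, against 14.5% of all genes. Ribosome biogenesis genes differed by a median of 0.060 over 40 genes. Of these, 29 stood above the other 3 (72.5%, against 44.5% of all genes) and 12 (30%) were at their highest. Their mean was 9.61 on that array, against 9.41 to 9.55 on the other 22. Among them Nop10, a small protein of the H/ACA particle, was 0.782 and Npm1, the nucleolar chaperone nucleophosmin, 0.546 higher. Of 31 translation factors 14 (45.2%) had their highest value there and 5 their lowest, and their mean was 11.44, against 11.25 to 11.36 on the other 22. Eif3e was 0.629, Eif2s2 0.581, Eif5a 0.527 and Eef1b2 0.503 higher, while Eef2 differed by -0.153, Eif3a by -0.160 and Eif3b by -0.253, and the median over the list was 0.041. The 18 growth signalling genes had a median difference of -0.122, and 8 had their lowest value of all arrays, against 18.6% of all genes. In that group Tsc2 differed by -0.371, Larp1 by -0.354 and Rptor by -0.295, and Rheb, the small GTPase that activates mTORC1, by 0.329. In the median, the 1871 genes of highest mean level differed by -0.073 and the 1196 sensory receptor genes, by 0.011.

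Tissue markers gave these values on the same array. All 5 pituitary markers were below the mean of the other 3 vehicle arrays at 6 h, with a median difference of -2.26. Prl stood at 6.72 there, against 6.21, 11.28 and 10.93 on replicates 1, 2 and 4, whose ribosomal means were 11.03, 11.03 and 11.01. Neuronal markers differed by -0.072, astrocyte markers by less than 0.001 and oligodendrocyte markers by 0.045 in the median, and microglial markers were 0.243 higher, with 3 of 4 above. Thalamus markers differed by -0.211 (1 of 5 above), blood markers by -0.170 (0 of 3), hypothalamus markers by -0.081 (5 of 13) and choroid plexus markers by 0.092 (4 of 6). The median over genes of that array was 8.65, within the range of the other arrays. The part of dissection, RNA quality or hybridisation in the excess was not tested.

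The sequence around the annotated start was read for the genes that RefSeq's start table for GRCm38.p6 holds, 48 of the 60. A run of at least 7 C or T that begins with C lay within 20 bases of a start, on the gene's strand, in 25 of the 48 (52.1%), against 22.1% of the 14937 measured genes with an entry. The same run on the other strand was found in 10.4% of the 48 and 23.7% of all. The windows below, 15 bases to either side of the most upstream entry, show genes at both ends of the excess on vehicle 6 h replicate 3, with Rps6 and Rps10 added as the best-known member and as a gene that differed between vehicle times. Capitals mark the run, and a window without capitals holds none.
Rps27l: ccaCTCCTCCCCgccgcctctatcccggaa
Rps21: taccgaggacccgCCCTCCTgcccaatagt
Rps12: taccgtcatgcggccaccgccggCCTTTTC
Rps3a1: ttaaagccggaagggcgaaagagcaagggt
Rps6: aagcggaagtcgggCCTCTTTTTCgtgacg
Rps10: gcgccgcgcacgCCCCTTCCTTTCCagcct
Rps2: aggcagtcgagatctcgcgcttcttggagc
Rpl12: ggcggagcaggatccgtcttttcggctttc

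In the order printed the windows lie at chr9:66946071-66946100 (plus strand), chr2:180257364-180257393 (plus), chr10:23787195-23787224 (minus), chr3:86142654-86142683 (minus), chr4:86857353-86857382 (minus), chr17:27635230-27635259 (minus), chr17:24720048-24720077 (plus) and chr2:32961697-32961726 (plus). Each spans the last bases before the gene and the first of its first exon. Rps27l, Rps21 and Rps12, which were high on the array, carry the run, as do Rps6 and Rps10, which differed little there. Among genes not printed, Rpl39l (-0.195), Rpl28 (0.036) and Rpl4 (0.040) also carry it, while Rps28 (0.653) and Rpl26 (0.600) hold none in this window. The printed windows are thus not a sample of either end. Leaving out the paralogs, the 22 genes with the run differed by 0.298 on that array in the median and the 20 without it by 0.443. These 22 and 20 genes were not matched for mean level. A match of letters in a window is not a mapped start and says nothing of translation, which these arrays did not measure.

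Outside that array the 60 genes were steady, as were some other gene groups. The SD of their mean between replicate arrays, pooled over the 6 groups, was 0.027 without vehicle 6 h replicate 3 and 0.074 with it. Without that array the SD of the mean was 0.025 for the translation factors and 0.035 for the proteasome genes. It was 0.015 for the 1871 genes of highest mean level, but 0.088 for the small nucleolar RNA genes and 0.876 for the pituitary markers. These lists were not matched for size or level. Per gene, the pooled SD between replicates was 0.070 for the median member, without that array, and 0.088 for the median of all genes, which are not matched to the 60 in level. Rpl21 (0.024) and Rps6 (0.037) varied least, and Rpl10l (0.248), Rpl14 (0.179) and Rps19 (0.170) most. Rpl21 and Rps6 also had the highest mean levels of the 60, and that of Rpl10l was among the lowest. The part of level in this order was not tested. Rpl10l is a retrogene of the testis. Leaving that array out also changes the shared estimate of each gene's spread, so the counts of the celastrol comparisons are given with and without it.

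At 6 h, celastrol changed none of the 60 genes past the threshold (limma, adjusted p under 0.05), and the family's shift with all arrays was not there without vehicle 6 h replicate 3. With all arrays 0 of 60 passed, against 0% of all genes, and 5 had an unadjusted p under 0.05 (8.33%), against 14.8% of all genes. The celastrol mean was lower for 51 of 60 genes (85%), against 47.2% of all genes, with a median difference of -0.065, against 0.0072 over all genes. Without vehicle 6 h replicate 3 it was lower for 26 of 60 (43.3%), against 52% of all genes, with a median of 0.0055. Then 0 of 60 passed, against 0% of all genes, and 1 had an unadjusted p under 0.05 (1.67%), against 9.93%. The 20 small subunit genes were all lower with every array, with a median of -0.134, and 13 of 20 were lower without that array, with a median of -0.0082. Among large subunit genes 25 of 30 were lower with it and 9 of 30 without it.

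Single genes at 6 h show the same dependence. Rps27l stood at 9.74, 9.51 and 9.80 with celastrol, against 9.70, 9.60, 10.61 and 9.71 with vehicle. The groups overlap, and 1 vehicle array lies far above all others. The difference was -0.22 ± 0.15 (SE; limma, adjusted p = 0.474), and 0.013 without that array. Rps29, at 10.76, 10.72 and 10.94 with celastrol against 10.86, 10.82, 11.58 and 10.77 with vehicle, differed by -0.20 with all arrays and by -0.010 without it. Rpl22, an RNA-binding protein that the ribosome can do without, kept more of its difference: it stood at 8.997, 9.14 and 9.21 with celastrol, against 9.21, 9.16, 9.63 and 9.34 with vehicle. That is -0.22 ± 0.093 (SE; limma, adjusted p = 0.287), or -0.12 without the array, and the groups overlap. Rpl14 was at -0.20 and -0.097 in the same order.

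The genes with the highest differences at 6 h did not pass either. Rpl3l stood at 6.71, 6.81 and 6.49 with celastrol, against 6.36, 6.50, 6.34 and 6.59 with vehicle, a difference of 0.22 ± 0.090 (SE; limma, adjusted p = 0.272). Rpl29 stood at 11.55, 11.37 and 11.39 with celastrol, against 11.29, 11.38, 11.20 and 11.35 with vehicle, a difference of 0.13 ± 0.055 (SE; limma, adjusted p = 0.274). In both the groups overlap. Rplp2 was 0.052 higher with all arrays and 0.13 higher without that array, and Rpl10, which joins the large subunit late in its assembly, 0.043 and 0.072 higher. Without the array, the 95% confidence intervals of the 60 differences reached from -0.37 to 0.45 at their widest, and the median interval extended 0.12 to either side, so changes of that size or smaller in single genes were not excluded by these data.

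**Figure D3:**
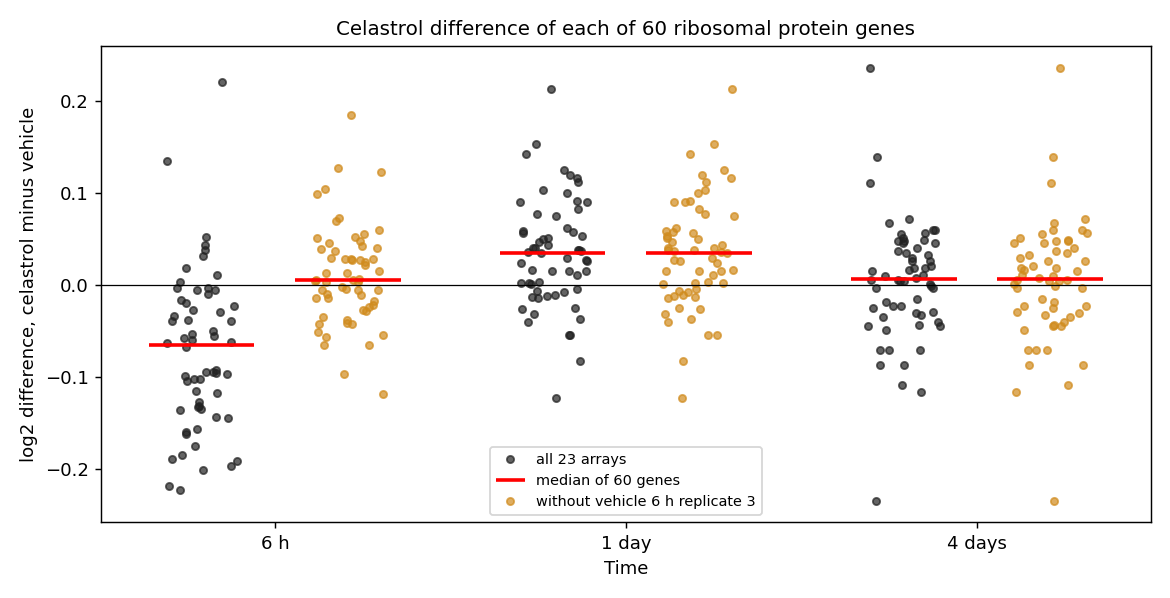
Celastrol minus vehicle log2 difference of each of the 60 genes at 6 h, 1 day and 4 days, with all 23 arrays (black) and without vehicle 6 h replicate 3 (orange); red lines are medians over the 60 genes. At 6 h the median is -0.065 with all arrays and 0.0055 without that array, while at 1 day (0.035) and 4 days (0.0063) the values are the same in both, since that array does not enter the group means compared.

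At 1 day the celastrol mean was slightly higher for most of the 60 genes, and none passed. With limma, 0 of 60 had an adjusted p under 0.05, against 0.016% of all genes (3), and 4 had an unadjusted p under 0.05 (6.67%), against 12.5% of all genes. All 4 were higher, as were 8.31% of all genes at that p. Without vehicle 6 h replicate 3, 0 passed (against 0.0107%) and 6 had an unadjusted p under 0.05 (10%), against 14.3% of all genes. The mean was higher for 44 of 60 (73.3%), against 54.1% of all genes, and the median difference was 0.035, against 0.0086 over all genes. It was lower for 16 genes, ranging from 13 to 23 on leaving out 1 array and from 11 to 28 in the other settings. The median ranged from 0.014 to 0.045 and from 0.0059 to 0.062 in the same order. For large subunit genes 24 of 30 were higher and for small subunit genes 13 of 20. In 7 genes (11.7%) every celastrol array lay above every vehicle array, against 6.44% of all genes: Rpl6, Rpl12, Rpl13, Rpl21, Rpl29, Rpl41 and Rps27l. In none did every celastrol array lie below, against 4.56% of all genes.

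Rpl6 gave the smallest p at 1 day. It stood at 12.19, 12.10, 12.29 and 12.24 with celastrol, against 12.03, 12.07, 12.09 and 12.07 with vehicle. The groups do not overlap, and the lowest celastrol array is close to the highest vehicle array. The difference was 0.14 ± 0.050 (SE; limma, adjusted p = 0.256). Rpl13, at 10.47, 10.44, 10.52 and 10.46 with celastrol against 10.37, 10.32, 10.29 and 10.31 with vehicle, differed by 0.15 ± 0.058 (SE; limma, adjusted p = 0.288). With arrays weighted by their quality it was the 1 gene of the 60 to pass (limma, adjusted p = 0.0419), in a setting where 406 genes passed in all, and over all settings its adjusted p lay between 0.0419 and 0.978. Rpl12 stood at 8.28, 8.13, 8.05 and 8.14 with celastrol, against 7.99, 7.99, 7.93 and 7.84 with vehicle, a difference of 0.21 ± 0.086 (SE; limma, adjusted p = 0.322). The vehicle arrays of these 3 genes lay close together. Rpl14 was 0.13 higher, on values that vary more between replicates.

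On the lower side at 1 day were Rps3a1 (-0.12), Rpl7l1 (-0.082), Rpl10a (-0.055) and Rpl5 (-0.055), with adjusted p between 0.571 and 0.811 (limma). For Rps3a1 the celastrol arrays read from 8.37 to 8.599 and the vehicle arrays from 8.54 to 8.68, so the groups overlap. Against all 12 vehicle arrays, which include vehicle 6 h replicate 3, the median of the 60 genes at 1 day was 0.0059. This comparison was not run without that array, so the array's part in the smaller value was not tested. Compared with the other times, the ribosomal mean on the celastrol arrays at 1 day, 11.05, 11.04, 11.10 and 11.09, lay in the upper part of the range of the 22 arrays, while the vehicle arrays at 1 day read 10.999, 11.06, 11.05 and 11.05.

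At 4 days the 60 genes were balanced. None passed with limma, against 0% of all genes, and 2 had an unadjusted p under 0.05 (3.33%), against 7.29% of all genes. When vehicle 6 h replicate 3 was left out, 0 passed and 4 had an unadjusted p under 0.05 (6.67%), against 8.68%. The celastrol mean was higher for 35 (58.3%, against 49.7% of all genes) and lower for 25 (41.7%, against 50.3%), with a median difference of 0.0063. Rpl3l stood at 6.51, 6.17, 6.47 and 6.30 with celastrol, against 6.66, 6.61, 6.44 and 6.69 with vehicle, a difference of -0.23 ± 0.083 (SE; limma, adjusted p = 0.476). The groups overlap in 1 vehicle array. Rpl32l was 0.11 higher (limma, adjusted p = 0.676). The stalk genes Rplp1 and Rplp2 were among the lowest, at -0.12 and -0.11. Rplp1 read 13.02, 13.01, 13.02 and 13.01 with celastrol, against 13.005, 13.15, 13.21 and 13.17 with vehicle, so that 3 of 4 vehicle arrays lay above all celastrol arrays. Rpl10l had the highest difference, 0.24, on values that ranged from 6.49 to 7.19 with celastrol and from 6.33 to 7.12 with vehicle. Rps3a1 (0.14) and Rpl10 (0.071) followed.

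**Figure D4:**
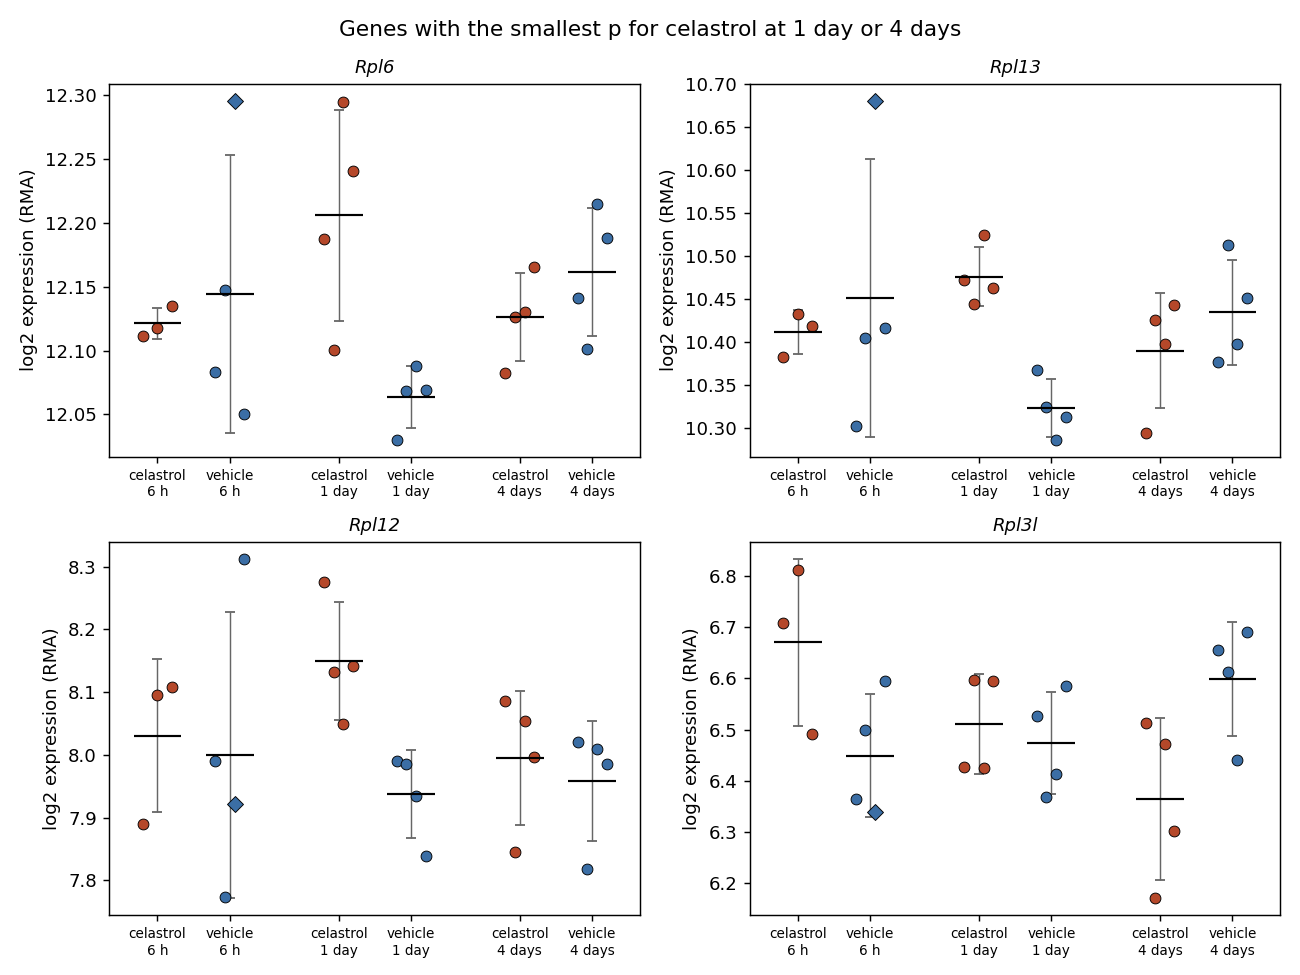
Log2 expression of Rpl6, Rpl13, Rpl12 and Rpl3l on each array by group, celastrol left of vehicle at each time; points are arrays, lines group means, bars 1 SD, and the diamond is vehicle 6 h replicate 3. At 1 day the celastrol arrays of Rpl6, Rpl13 and Rpl12 lie above the vehicle arrays, and Rpl3l is higher with celastrol at 6 h (difference 0.22) and lower at 4 days (-0.23); none of these passed the adjusted threshold.

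Taken over the 3 times, no gene of the family showed a celastrol effect that passed. For the mean effect 0 of 60 passed with limma and 0 had an unadjusted p under 0.05, against 13.5% of all genes. The mean effect was lower for 41 of 60 with all arrays, against 46.7% of all genes, and for 15 of 60 without vehicle 6 h replicate 3, against 48.3%, where 0 passed and 1 had an unadjusted p under 0.05 (1.67%), against 12.9%. The smallest p for the mean effect were those of Rpl12 (0.093, limma, adjusted p = 0.429) and Rpl22 (-0.088, limma, adjusted p = 0.457), followed by Rpl7l1 (-0.056) and Rpl29 (0.049). Without the array the 95% intervals of the mean effect lay between -0.14 and 0.30 for all 60 genes, that is between 0.905-fold and 1.23-fold. No gene passed the test of a celastrol effect that differs between times, against 0.0588% of all genes, and 4 had an unadjusted p under 0.05 (6.67%, against 13%). On leaving out vehicle 6 h replicate 3, 0 passed (against 0.0481%) and 5 had an unadjusted p under 0.05 (8.33%, against 12.9%). Rpl3l came nearest (limma F test, adjusted p = 0.175), with differences of 0.22, 0.037 and -0.23 at 6 h, 1 day and 4 days. Rpl29 was next (limma, adjusted p = 0.256), with 0.13, 0.10 and -0.087, followed by Rpl6 (0.350) and Rpl13 (0.365).

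Between times the vehicle animals did differ in a few genes of the family. In the F test over the 3 vehicle groups 3 of 60 passed (5%), against 8.83% of all genes, namely Rpl29, Rps10 and Rpl41. An unadjusted p under 0.05 was found for 13 (21.7%), against 28.5% of all genes. Against 6 h, the 4-day vehicle group had 3 of 60 past the threshold (5%), against 3.91% of all genes, and 16 at an unadjusted p under 0.05, against 23.9%. Rpl29, a large subunit protein, rose. It stood at 11.62, 11.52, 11.49 and 11.54 with vehicle at 4 days, against 11.29, 11.38, 11.20 and 11.35 with vehicle at 6 h, and the groups do not overlap. The difference was 0.24 ± 0.051 (SE; limma, adjusted p = 0.0155), and the 1-day vehicle arrays, at 11.36, 11.37, 11.41 and 11.35, lay below those at 4 days and overlapped those at 6 h. Rps10, a protein near the messenger RNA entry site, fell. It stood at 12.54, 12.67, 12.60 and 12.58 at 4 days, against 12.71, 12.76, 12.83 and 12.81 at 6 h, with no overlap and a difference of -0.18 ± 0.042 (SE; limma, adjusted p = 0.0242). Its other probe sets gave -0.15 and -0.095. The paralog Rpl32l fell by 0.19 ± 0.053 (SE; limma, adjusted p = 0.0469), at 8.58, 8.48, 8.46 and 8.39 against 8.66, 8.72, 8.73 and 8.55, where the groups overlap. Its call was borderline: of 23 fits that each left out 1 array, 17 lost it (limma, adjusted p from 0.0225 to 0.138 over the 23). Rpl29 lost its call in 1 of these fits and Rps10 in 3.

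Rpl41, which encodes a very short peptide of the large subunit, differed in its 1-day group. It stood at 13.41, 13.38, 13.41 and 13.36 with vehicle at 1 day, against 13.46, 13.57, 13.70 and 13.51 at 6 h and 13.59, 13.47, 13.57 and 13.63 at 4 days, and passed the F test over the 3 vehicle groups (limma, adjusted p = 0.0366). The 1-day arrays lay below all other vehicle arrays. Of 23 fits that each left out 1 array, 7 lost this call (limma F test, adjusted p from 0.0228 to 0.0986). Set directly against 6 h the difference of -0.17 did not pass (limma, adjusted p = 0.301), and of the 60 genes 0 passed in that comparison, with 9 at an unadjusted p under 0.05, against 0% and 10.7% of all genes.

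**Figure D5:**
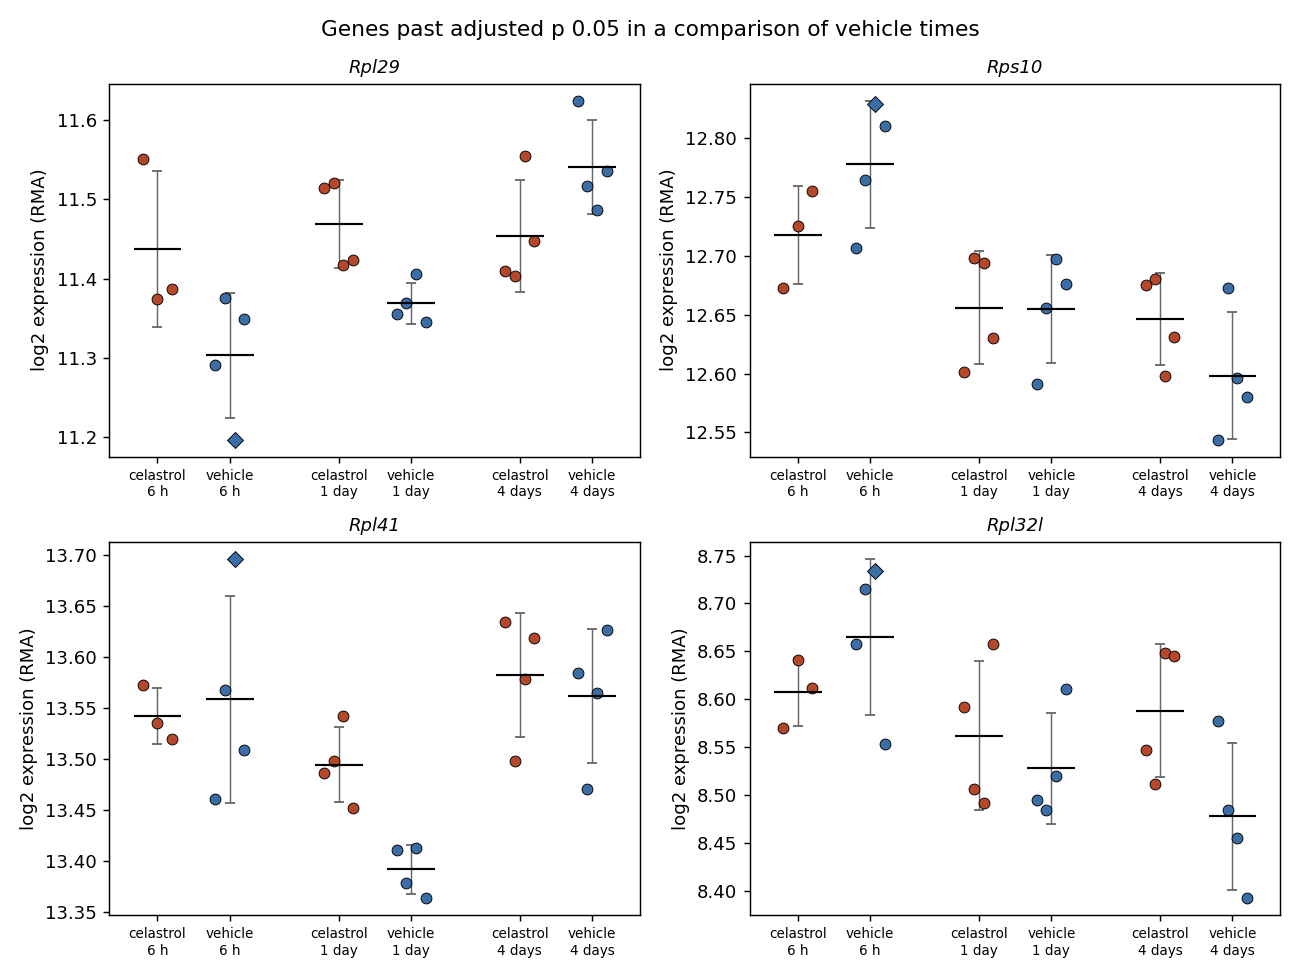
Log2 expression of Rpl29, Rps10, Rpl41 and Rpl32l on each array by group, celastrol left of vehicle at each time; points are arrays, lines group means, bars 1 SD, and the diamond is vehicle 6 h replicate 3. In vehicle animals Rpl29 is higher and Rps10 and Rpl32l are lower at 4 days than at 6 h (0.24, -0.18 and -0.19), and Rpl41 is lowest at 1 day.

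These calls rested in part on single arrays, and all were lost with the spread of values over each array as a covariate. Without vehicle 6 h replicate 3, the 4-day against 6 h comparison called 0 of 60, against 1.09% of all genes, with 13 at an unadjusted p under 0.05 (21.7%, against 16.5%). Rpl29 then had an adjusted p of 0.0525 and Rps10 one of 0.0638 (limma), at differences of 0.20 and -0.16. The F test called 5 without that array, against 8.12% of all genes, namely Rpl29, Rpl41, Rpl36, Rps10 and Rpl24. It called 6 without vehicle 6 h replicate 4, against 10.3% of all genes, and 1 without vehicle 4 days replicate 1 or replicate 3, against 4.63% and 3.99%. The 4-day comparison called 6 without vehicle 6 h replicate 4, against 6.45% of all genes, and 1 without vehicle 4 days replicate 3, against 1.17%. The SD over genes of an array was 1.89 to 1.91 on the 4-day vehicle arrays, against 1.92 to 1.94 on those at 6 h, without overlap. With it as a covariate both counts were 0, against 2 genes of 18702 in the F test and 13 in the 4-day comparison, so the calls over all genes were lost as well. Because this SD separates the 4-day from the 6 h vehicle arrays, that fit cannot tell a difference of time from one of array spread. Time after injection and any difference in how the arrays of a time were handled cannot be told apart.

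The shift of the whole family between vehicle groups also depended on that array. With all arrays 45 of 60 genes were lower at 4 days than at 6 h (75%), against 37.9% of all genes, with a median of -0.069. Without vehicle 6 h replicate 3 the count was 31 (51.7%), against 39.7%, and the median -0.0065. At 1 day against 6 h, 49 of 60 were lower with all arrays (81.7%), against 54.1% of all genes, and 28 (46.7%) without it, against 54.6%, with medians of -0.070 and 0.0047. Between the celastrol groups, 0 of 60 passed the F test between times, against 0.246% of all genes, and 8 had an unadjusted p under 0.05 (13.3%, against 16.4%). That array enters this test only through the estimate of the spread, and without it 0 passed (against 1.07%) and 14 had an unadjusted p under 0.05 (23.3%, against 20.2%). Rpl3l (limma, adjusted p = 0.172), Rpl10 (0.173), Rpl36 (0.187) and Rpl9 (0.233) came nearest. Rpl36 read 11.68, 11.72, 11.69 and 11.68 with celastrol at 4 days, against 11.46, 11.51 and 11.57 with celastrol at 6 h, and these groups do not overlap.

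The machinery that makes and serves ribosomes gave the following beside them, from lists of 40 biogenesis, 31 measured translation factor and 18 measured growth signalling genes. With celastrol, none of these genes passed at any time (limma). At 6 h the biogenesis genes were lower in 35 of 40, against 47.2% of all genes, with a median of -0.073, and in 33 of 40 without vehicle 6 h replicate 3, against 52% of all genes, with a median of -0.061. The median of the 60 ribosomal protein genes without that array was 0.0055. Wdr43 (-0.22, limma, adjusted p = 0.156), Wdr12 (-0.21) and Nip7 (-0.22) had the smallest p. Translation factors were lower in 26 of 31 with that array (83.9%, against 47.2% of all genes) and in 23 of 31 without it (74.2%, against 52%). Growth signalling genes were lower in 11 of 18 with all arrays (61.1%) and in 14 of 18 without it (77.8%), against the same shares of all genes, with Ddit4, an inhibitor of mTORC1, at -0.23 (limma, adjusted p = 0.220). These shares of all genes are not matched for level. The SD over genes was 1.87 to 1.92 on the celastrol arrays at 6 h and 1.92 to 1.94 on the vehicle arrays. The 1871 genes of highest mean level averaged 11.79 with celastrol and 11.82 with vehicle without that array. The dim sensory receptor genes averaged 5.75 and 5.67. The part of level in the counts of lower genes was not tested.

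In vehicle animals at 4 days against 6 h, 3 of 40 biogenesis genes and 4 of 31 translation factors passed, against 3.91% of all genes. Rrs1, which assembles the 5S particle with Rpl5, fell by 0.47 ± 0.096 (SE; limma, adjusted p = 0.0140), and Wdr12, of the PeBoW complex, by 0.28 (limma, adjusted p = 0.0140), while Tcof1, the nucleolar protein treacle, rose by 0.20 (limma, adjusted p = 0.0282). Tpt1, whose messenger RNA carries the same terminal pyrimidine element as the ribosomal genes, fell by 0.22 ± 0.036 (SE; limma, adjusted p = 0.00438). Eif4e, the cap-binding factor, fell by 0.31 (limma, adjusted p = 0.0140). Among growth signalling genes Rheb fell by 0.23 (limma, adjusted p = 0.0365). Without vehicle 6 h replicate 3, Rrs1, Wdr12, Tpt1 and Eif4e passed, with adjusted p between 0.0116 and 0.0445 (limma), and Tcof1 and Rheb did not.

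Of the subunits outside the name form, Rpsa and Fau had probe sets of their own. Both were higher on vehicle 6 h replicate 3, by 0.304 and 0.178. At 1 day Fau was 0.13 and Rpsa 0.12 higher with celastrol (limma, adjusted p = 0.351 and 0.432), the side on which most of the 60 genes lay.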

How the data were processed

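The deposited values are log2 expression per probe set, which the authors made with RMA (named in the submitters' processing notes, per the labels). The sources used here do not state the software version, the genome build or whether probe sets were filtered. They were used as deposited. Probe sets were named through the array's annotation with symbols updated by gene identifier: of 23492, 20228 named 1 gene, 1399 several and 1865 none. The probe set of highest mean stood for a gene, giving 18702 genes with no filter on level. No 2 arrays were duplicates. Means of the 6 groups were estimated from 23 arrays in 1 limma fit (3.58.1, R 4.3.3; 17 residual and 5.42 prior degrees of freedom), with Benjamini-Hochberg adjustment over all genes. In simulated data at 6 h it recovered 28.4% of 67 genes changed by 0.25 and 92.5% of 67 changed by 0.5 on the log2 scale among 18702. Sequences are RefSeq's (GRCm38.p6).

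The genes, lists and tests were chosen with earlier results of these data known. Genes named are those past 0.05 in any comparison, the 4 lowest and 4 highest at each time, the 4 of smallest p in each F test and the mean effect, a fixed set of role genes, and up to 3 of lowest p per related list. Genes named for their values on vehicle 6 h replicate 3 were chosen after those values were seen, as was the leading role given to that array. Of the role genes, Rpl11 and Rpl13a lie on shared probe sets and Rps27a was not analysed here. The number of arrays limits the precision. Same-numbered arrays were not treated as paired. Over 55 same-numbered pairs of arrays from different groups, the correlations of their deviations ran from -0.222 to 0.258, with 9 over 0.1. For the 165 pairs of different number they ran from -0.327 to 0.339, with 30 over 0.1. Alternatives were a robust variance trend, a level filter, further quantile normalisation, median centring, the mean of a gene's probe sets, array weights, a replicate block, the array SD as a covariate, all vehicle arrays as control, only the groups compared, and leaving out each array.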

Additional observations from a re-analysis of the deposited data

Results flagged for a closer look

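Within groups of 4 arrays, 155 checks of the ribosomal mean and of named genes found 8 values whose gap to the next array was wide for their group, where chance gives about 1 in 20, that is 7.75 of 155, so their number is what chance gives. Of these, 6 lay on vehicle 6 h replicate 3, and since these genes move together they are not separate findings. The mean over the 60 genes was 11.36 there and 11.01 to 11.03 on the other 3 arrays. Rps27l read 10.61 there (others up to 9.71), Rps29 11.58 (up to 10.86), Rpl5 12.25 (up to 11.81), Rpl36 11.71 (up to 11.49) and Rpl7 11.29 (up to 10.50). The other 2 were the lowest of their group on vehicle 1 day replicate 1: the mean over the 60 genes, 10.999 against 11.05 to 11.06, and Rpl10, 13.59 against 13.69 to 13.70.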

How the results depend on the processing

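The counts of 0 members past the threshold held under each alternative run for celastrol at 6 h and 4 days, the mean effect, both tests of celastrol over time, and vehicle at 1 day against 6 h. All vehicle arrays as control, and only the groups compared, were run for the celastrol effect at each time and for no other comparison. At 1 day of celastrol the count was 1 with array weights. For vehicle between times it was 3, ranging from 1 to 6 on leaving out 1 array, and 0 with the array SD as a covariate. For vehicle at 4 days against 6 h it was 3, ranging from 0 to 6 on leaving out 1 array, 5 with only the genes of higher mean level (a level filter) and 0 with the array SD as a covariate. The median of the 60 genes at 6 h ranged from -0.111 to 0.0055 on leaving out 1 array and was -0.017 with array weights, and that of vehicle at 1 day against 6 h ranged from -0.108 to 0.0047. Single genes that changed sign were Rps27l at 6 h, from -0.32 to 0.013 on leaving out 1 array and above 0 without vehicle 6 h replicate 3, Rplp2 at 6 h, from -0.0015 without celastrol 6 h replicate 1 up to 0.13, and, against all vehicle arrays, Rpl10 at 6 h (-0.017) and Rpl29 (0.049), Rpl10l (-0.017) and Rps3a1 (-0.083) at 4 days. Apart from the fewer arrays or genes in a setting, the cause was not tested. With the replicate number as a block, the median at 6 h was -0.071, vehicle between times called 4 members and vehicle at 4 days against 6 h called 3, with Rpl32l not among them (limma, adjusted p = 0.0636), and the celastrol counts stayed at 0. The number of arrays limits what could be called: a change of 0.25 on the log2 scale was often missed in simulated data.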
